A study of Mus musculus with 23 samples.

Results

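Integrins are the paired alpha and beta receptors by which cells hold the matrix and each other, and laminins are the trimeric proteins of basement membranes that several integrins bind. Genes whose symbols name an integrin alpha chain, an integrin beta chain or a laminin chain by the usual numbering, with *Itgae*, *Itgal*, *Itgam* and *Itgav* added, were taken from both tables. The rule reads symbols alone, but the members were chosen with earlier results of these data known. The genes described here are 34 of 24940 gene symbols, of which 16 code for integrin alpha chains, 8 for integrin beta chains and 10 for laminin chains. The RNA came from 15 whole tumors, 3 each of the melanoma line B16-F10 (B16), the breast cancer line EO771.LMB (EO771), the lung cancer line LL/2 (LL2), the colon cancer line MC38 and the pancreatic cancer line Pan02, and from 8 libraries of cancer-associated fibroblasts (CAFs), 2 each from EO771, LL2, MC38 and Pan02 tumors. For every group 500000 cultured cells of 1 line were injected into the flank of female C57BL/6 mice and the tumors received no treatment, so each model stands for 1 cell line in 1 host strain. Tumor RNA came from a fragment of the excised tumor, and CAFs were the FAP+ cells of the CD45-negative fraction, collected in 2 rounds of sorting per model. The labels number the replicates without saying that they came from separate animals, so p-values measure only the spread between these samples, which may be technical. CAFs of B16 tumors and the CT26 model were not analysed here.

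Integrin alpha and beta chains reach the cell surface only as a pair, and the alpha chain largely sets the ligand. Alpha1, alpha2, alpha10 and alpha11 paired with beta1 bind collagens, alpha3, alpha6 and alpha7 bind laminins, a set of alpha5, alpha8, alphaV and alphaIIb receptors binds the RGD motif of fibronectin, vitronectin and related proteins, and the beta2 and beta7 chains are best known from leukocytes. A laminin is a cross-shaped trimer of an alpha, a beta and a gamma chain. Alpha4 and alpha5 chains are typical of vessel and epithelial basement membranes, and laminins with the alpha3 chain anchor epithelia through alpha6beta4 in hemidesmosomes.

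Counts on the chosen transcripts summed to between 10035173 and 21946486 per tumor, and CAF depths recovered from the steps of low RPKM values ran from 9270000 to 22840000 reads. In both tables the library nearest to each library over the tested genes was of its own model. Of the 4 pairs of CAF libraries the MC38 pair differed most, with *Col1a1* in library 2 at 467 against 2771 RPKM in library 1, and LL2 tumor 3 carried *Krt5* at 22.2 RPKM against at most 0.499 in the other LL2 tumors. All 5 fibroblast markers (*Fap*, *Pdgfra*, *Pdgfrb*, *Col1a1*, *Dcn*) reached 1 RPKM in every CAF library. The epithelial list of 7 genes, however, summed to 498 to 505 RPKM in EO771 CAFs, 202 to 209.5 in LL2 CAFs and 834 to 1122 in Pan02 CAFs but 2.79 to 4.31 in MC38 CAFs, and in the tumors of these models to 677 to 712, 345 to 484, 1353 to 2094 and 4.42 to 33.7 RPKM. *Fap* itself read 3.28 and 1.89 RPKM in Pan02 CAFs and 2.08, 5.35 and 4.87 in Pan02 tumors. In a bulk sample, fewer cells of a type and less RNA per cell cannot be told apart.

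All 34 genes passed the filter on low counts in tumors, and 33 of them differed among the 5 models (edgeR quasi-likelihood test, adjusted p under 0.05), where 91.1% of all 15722 tested genes did; *Itgal* missed the threshold (adjusted p = 0.071). Each model was then set against the mean of the other 4, and calls needed an adjusted p under 0.05 together with a change of 1 or more on the log2 scale. B16 tumors had 18 of the 34 genes lower, against 19.6% of all tested genes, and 4 higher, against 13.1%. Pan02 tumors showed the opposite balance, with 16 higher (18.8% of all genes) and 0 lower (7.93%); 5 members were lower in Pan02 at an unadjusted p under 0.05 whatever their size, and DESeq2 called 0 as well. EO771 tumors had 6 higher and 7 lower (9.71 and 13.7% of all genes), LL2 tumors 6 and 2 (8.51 and 8.29%) and MC38 tumors 5 and 4 (11.2 and 8.24%). The median log2 fold change of the 34 genes was -1.19 in B16, also with *Itgb6* at its detection floor, and 0.94 in Pan02, beside -0.03 and 0.05 over all tested genes. All 3 B16 tumors lay above all others for 6 members and below for 11, where 14.5 and 12.2% of all genes did. Pan02 tumors did so for 9 and 0 members (8.92 and 9.52% of all genes), EO771 tumors for 3 and 1 (9.76 and 7.02%), LL2 tumors for 3 and 0 (5.16 and 2.31%) and MC38 tumors for 1 and 3 (7.68 and 6.1%). For each of the 15 tumors, the tumor nearest to it over these 34 genes alone was of its own model. Contrasts share tumors with each other and are given side by side. A total-count scaling in place of TMM (edgeR's trimmed mean of M values) moved the log2 values of all genes by 0.14 in MC38 and -0.11 in Pan02, and the changes below are relative to the TMM scale.

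**Figure D1:**
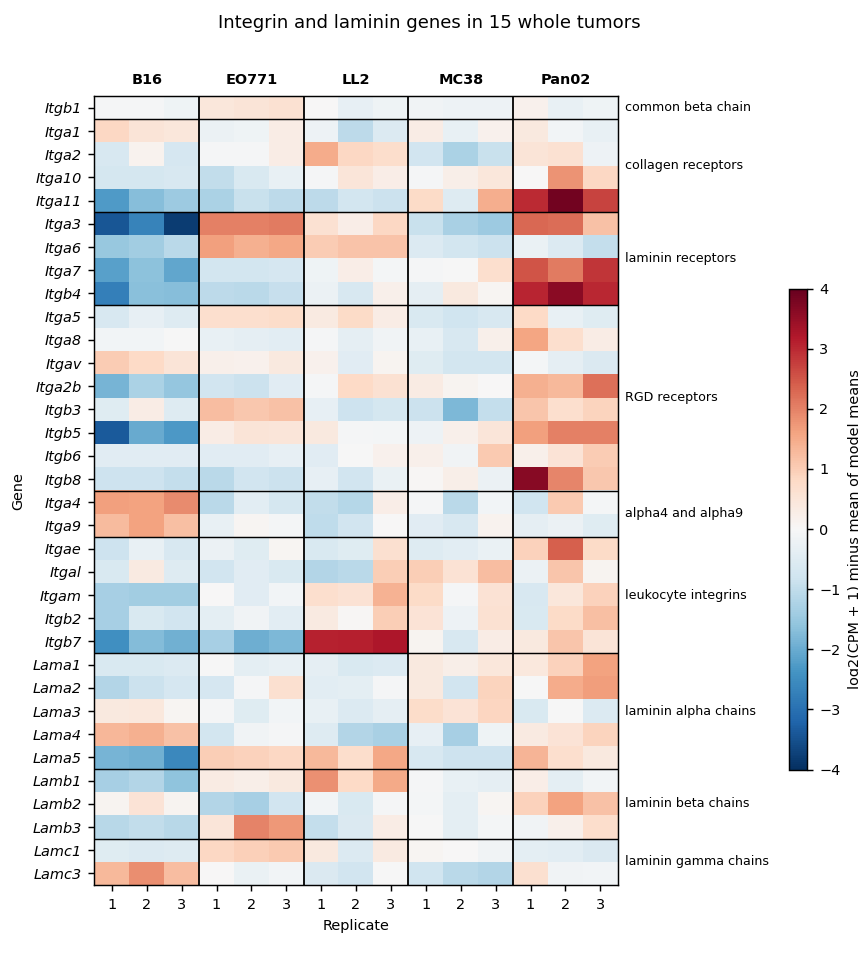
Each row is 1 of the 34 genes, ordered by role, and each column 1 tumor; color gives log2(CPM + 1) minus the mean of the 5 model means. B16 columns are mostly blue, with *Itga4*, *Itga9* and *Lama4* red, Pan02 columns are red for *Itgb4*, *Itga11*, *Itga7* and *Itgb5*, and *Itgb7* is deep red in the 3 LL2 tumors.

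By name, the B16 calls were upward for *Itga4*, *Itga9*, *Lama4* and *Lamc3* and downward for *Itga2b*, *Itga3*, *Itga6*, *Itga7*, *Itga10*, *Itga11*, *Itgam*, *Itgb2*, *Itgb4* to *Itgb8*, *Lama1*, *Lama2*, *Lama5*, *Lamb1* and *Lamb3*. Of these, *Itgb8* lost its call without B16 tumor 3 (adjusted p = 0.066), *Lama2* without B16 tumor 1 (adjusted p = 0.067), *Itgb2* as given below and *Itgb6* without any 1 B16 tumor or EO771 tumor 3 (adjusted p from 0.059 to 1.00). Pan02 calls were upward for *Itga2b*, *Itga3*, *Itga7*, *Itga8*, *Itga10*, *Itga11*, *Itgae*, *Itgb3* to *Itgb6*, *Itgb8*, *Lama1*, *Lama2*, *Lama5* and *Lamb2*. EO771 calls were upward for *Itga3*, *Itga6*, *Itgb3*, *Lama5*, *Lamb3* and *Lamc1* and downward for *Itga4*, *Itga10*, *Itga11*, *Itgb4*, *Itgb7*, *Itgb8* and *Lamb2*. The *Itga4* call in EO771 (-1.06) was the least stable, as it was lost without any 1 of 10 tumors, among them each B16 and each EO771 tumor (adjusted p up to 0.17, without EO771 tumor 1), LL2 tumor 3, MC38 tumors 1 and 3 and Pan02 tumor 2 (change -0.87, adjusted p = 0.042). That of *Itga10* was lost without EO771 tumor 1 or 2 or Pan02 tumor 2 (highest adjusted p = 0.13), and that of *Itgb8* without EO771 tumor 1 (adjusted p = 0.06). LL2 calls were upward for *Itga2*, *Itga6*, *Itgam*, *Itgb7*, *Lama5* and *Lamb1* and downward for *Itga11* and *Lama4*, of which *Itga11* was lost without any 1 LL2 tumor, B16 tumor 2 or 3 or EO771 tumor 2 (highest adjusted p = 0.11). MC38 calls were upward for *Itga11*, *Itgal*, *Itgb6*, *Lama1* and *Lama3* and downward for *Itga2*, *Itga3*, *Itgb3* and *Lamc3*, and *Itgb6* lost its call without MC38 tumor 3 (adjusted p = 0.078). *Itga1*, *Itga5*, *Itgav* and *Itgb1* were called in no model.

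In LL2 tumors the largest change was that of *Itgb7*, the beta7 chain that pairs with alpha4 or alphaE on lymphocytes homing to gut and epithelium (mm10 chr15:102215995-102231935, minus strand, with no exon base shared with another gene). LL2 tumors held 444, 452 and 499.9 CPM, the counts scaled to a common library size. The other 12 tumors lay at or below 113 CPM, so the groups did not overlap (log2 fold change 3.94, SE 0.18, adjusted p = 4.5e-09, edgeR). Pan02 tumors came next with 68.7, 113 and 74.4 CPM and MC38 tumors followed with 55.5, 32.8 and 64.4 CPM. B16 and EO771 tumors stayed between 8.55 and 19.9 CPM. The same model stood apart in CAFs, where the 2 LL2 libraries read 55.9 and 62.7 RPKM and the other 6 at most 4.92 RPKM (difference on the log2(RPKM + 1) scale 4.01, SE 0.18, adjusted p = 3.1e-05, limma).

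Neither partner chain of beta7 was called higher in LL2 tumors, and both stayed below the filter in CAFs. *Itga4* read 9.31, 8.08 and 23.4 CPM in LL2 tumors and 0.155 and 0.0710 RPKM in LL2 CAFs. *Itgae* read 1.16, 1.36 and 4.13 CPM and 0.168 and 0.0460 RPKM in the same groups. Per length, the *Itga4* to *Itgb7* ratio in RPKM was 0.00485 to 0.0127 in LL2 tumors, against 0.0420 to 0.0978 in Pan02, 0.0715 to 0.0907 in MC38, 0.116 to 0.304 in EO771 and 1.10 to 1.96 in B16 tumors. The 8 leukocyte markers (*Ptprc*, *Cd3e*, *Cd8a*, *Cd4*, *Ncr1*, *Adgre1*, *Csf1r*, *S100a8*) were summed per library. The sums were 112 to 185 RPKM in LL2 tumors, 90.8 to 235 in Pan02, 77.6 to 129 in MC38, 92.95 to 108 in EO771 and 32.96 to 62.7 in B16 tumors. In CAFs the sums were 0.979 to 1.37 RPKM in LL2, 1.41 to 2.46 in MC38, 1.59 to 2.02 in Pan02 and 9.98 to 10.7 in EO771, where *Itgb7* was 2.58 and 2.40 RPKM. *Ptprc*, the CD45 gene that all leukocytes carry, read 0.0170 and 0.0210 RPKM in LL2 CAFs. It missed the filter in CAFs, which in all models were sorted as CD45-negative. The part of leukocytes in the *Itgb7* level was not tested. Of the 4 dendritic cell markers (*Xcr1*, *Clec9a*, *Flt3*, *Zbtb46*), *Clec9a* was higher in LL2 tumors at 4.14, 2.40 and 3.13 RPKM and in LL2 CAFs at 2.22 and 2.52 RPKM, and *Flt3* was higher in LL2 tumors (1.65). *Zbtb46* was lower in LL2 tumors at 0.914, 1.17 and 1.40 RPKM (-1.08), and *Xcr1* at 0.0916, 0.0234 and 0.225 RPKM did not pass the test there (-1.73, adjusted p = 0.067). The list summed to 4.43 to 4.53 RPKM in LL2 CAFs and 1.28 to 3.29 RPKM in the other CAFs, and its part in the *Itgb7* level was not tested.

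Start-site sequences from RefSeq are shown for *Itgb7* and *Lamb1*, called higher in LL2 tumors and CAFs alike, and for *Lama5*. *Lama5*, a laminin alpha chain, was called higher in LL2, EO771 and Pan02 tumors and, among CAFs, in Pan02 but not in LL2. These are 3 of the 6 genes called higher in LL2 tumors, and their calls differ in the other models. The table of start sites holds 22 of the 34 genes. Each runs 5′ to 3′ on the gene's strand from 250 bases before to 50 after the start (GRCm38.p6), and capitals mark E-boxes (CANNTG) and GC boxes (GGGCGG), each searched on both strands, which share no base in these windows.
Itgb7, chr15:102231886-102232185, minus strand: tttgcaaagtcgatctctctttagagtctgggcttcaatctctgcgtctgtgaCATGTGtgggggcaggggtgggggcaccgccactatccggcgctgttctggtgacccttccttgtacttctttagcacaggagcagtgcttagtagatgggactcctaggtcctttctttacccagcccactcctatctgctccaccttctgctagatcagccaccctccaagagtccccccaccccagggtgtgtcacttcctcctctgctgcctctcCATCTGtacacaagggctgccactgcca
Lamb1, chr12:31265043-31265342, plus strand: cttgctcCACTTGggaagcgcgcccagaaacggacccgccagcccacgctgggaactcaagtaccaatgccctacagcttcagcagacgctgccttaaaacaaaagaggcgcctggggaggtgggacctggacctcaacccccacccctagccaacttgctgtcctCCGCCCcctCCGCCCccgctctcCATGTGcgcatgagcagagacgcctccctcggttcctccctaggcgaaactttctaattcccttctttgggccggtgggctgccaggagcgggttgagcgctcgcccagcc
Lama5, chr2:180225810-180226109, minus strand: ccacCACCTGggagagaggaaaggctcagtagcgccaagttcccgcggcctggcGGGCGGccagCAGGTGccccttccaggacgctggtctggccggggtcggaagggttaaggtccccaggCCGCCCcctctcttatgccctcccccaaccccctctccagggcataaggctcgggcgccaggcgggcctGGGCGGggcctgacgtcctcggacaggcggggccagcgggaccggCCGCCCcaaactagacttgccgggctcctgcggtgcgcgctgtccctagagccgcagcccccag
All 3 windows hold 2 E-boxes, which 72.3% of the 32851 windows in the table hold at least once. The *Itgb7* window has no GC box, *Lamb1* has 2 and *Lama5* 4, against 35.7% of all windows with at least 1. Of the 22 member genes in the table, 18 hold an E-box and 11 a GC box. The *Itgb7* window is 56.3% G or C, the *Lamb1* window 63.7% and the *Lama5* window 72.7%. A match of letters is a description of the window and not a binding site.

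**Figure D2:**
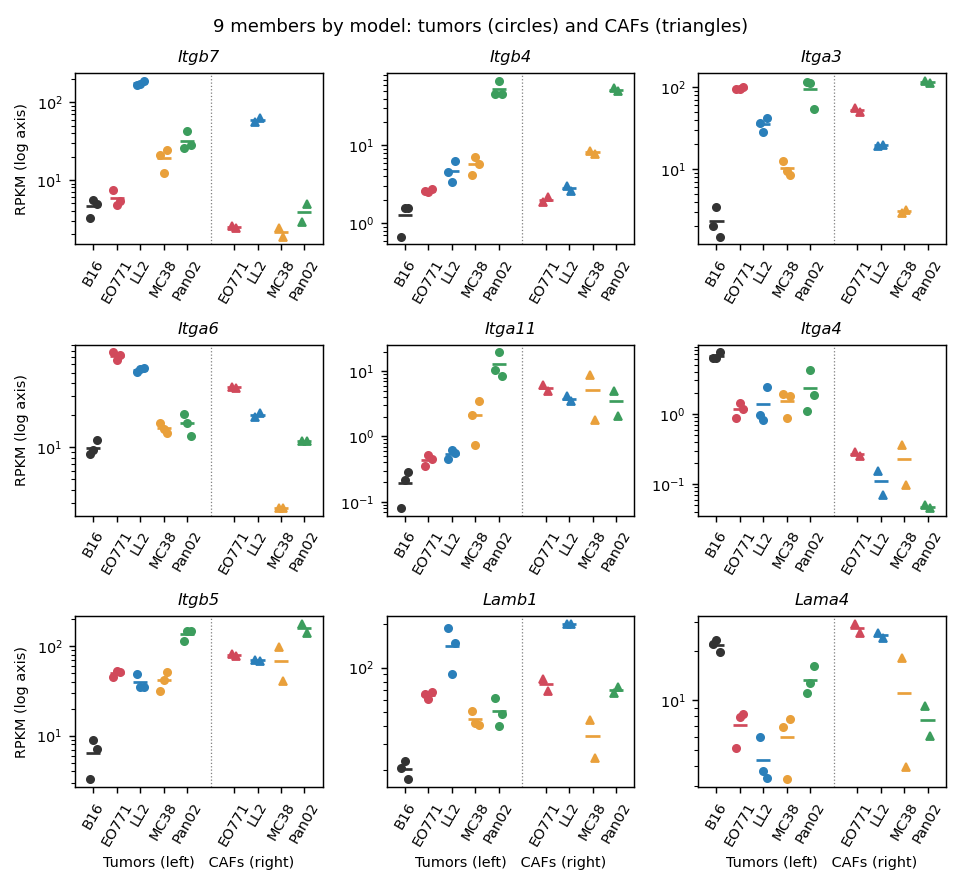
RPKM on log axes for 9 members, with circles for the 3 tumors and triangles for the 2 CAF libraries of each model, and bars at the group means; the 2 tables were normalized separately. *Itgb7* in LL2, *Itgb4* in Pan02 and *Lamb1* in LL2 are highest in both tables, *Itga11* is highest in Pan02 tumors only, and among the tumors *Itga4* and *Lama4* are highest in B16.

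All 4 laminin receptor chains were lower in B16 tumors, 3 were higher in Pan02 and 2 in EO771 (19.6, 18.8 and 9.71% of all genes). *Itga3*, the alpha3 chain of the epithelial laminin receptor, measured 457, 459.8 and 488 CPM in EO771 tumors and 562, 543 and 259.7 CPM in Pan02 tumors. In LL2 tumors it was 175, 136 and 204, in MC38 tumors 61.04, 45.1 and 41.2 and in B16 tumors 9.72, 16.8 and 7.23 CPM, so that B16 and MC38 lay below every tumor of the other models and the B16 fold change was -4.19, SE 0.33, adjusted p = 1.2e-07. The changes in EO771 and Pan02 were 2.53, SE 0.21 and 2.48, SE 0.21. *Itga6*, which codes for the alpha6 chain that pairs with beta1 or beta4, was highest in EO771 at 461, 396 and 438 CPM (1.91, SE 0.11, adjusted p = 2.1e-08) and LL2 at 300.2, 326 and 332 CPM (1.37, SE 0.12, adjusted p = 8.6e-07). The 9 tumors of B16, MC38 and Pan02 ran from 51.9 to 124 CPM, below all of these.

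*Itgb4*, the beta4 chain that only alpha6 pairs with and that links laminin to keratin filaments, followed another order. Pan02 tumors held 274, 402 and 271 CPM. No other tumor passed 42.8 CPM, and the fold change was 4.09, SE 0.19, adjusted p = 2.3e-09. EO771, highest for *Itga6*, had 15.3, 14.9 and 16.6 CPM of *Itgb4* and B16 4.03, 9.51 and 9.33 CPM. The 2 chains of the pair were thus highest in different models. The ratio of *Itga6* to *Itgb4* in RPKM was 0.249 to 0.451 in Pan02 tumors and 26.4 to 30.04 in EO771 tumors, with 2.09 to 4.003 in MC38, 5.90 to 12.8 in B16 and 8.81 to 16.1 in LL2. *Itga7*, the alpha7 laminin receptor best known from muscle, was also highest in Pan02 at 115, 83.2 and 146 CPM against at most 31.3 elsewhere (3.25, SE 0.16, adjusted p = 4.2e-09). Muscle markers are given beside it, and their part in *Itga7* was not tested. The 5 skeletal muscle markers (*Acta1*, *Ckm*, *Myh4*, *Mylpf*, *Tnnt3*) summed to 24.3 to 547 RPKM in Pan02, 3.45 to 684 in LL2, 8.67 to 10.9 in EO771, 4.94 to 5.21 in B16 and 237 to 1883 in MC38 tumors, where *Itga7* was 18.5, 18.8 and 31.3 CPM. In Pan02 CAFs that list summed to 1.73 to 1.79 RPKM while *Itga7* read 18.4 and 35.2 RPKM.

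Of the hemidesmosome partners of alpha6beta4 (*Plec*, *Dst*, *Col17a1*, *Cd151*), 1 of 4 was higher in Pan02 tumors (18.8% of all genes). It was the tetraspanin *Cd151*, with 219, 173 and 202 RPKM and a log2 fold change of 1.58. The laminin-binding glycoprotein *Bcam* had 31.01, 37.2 and 39.2 RPKM in Pan02 tumors (3.44). *Col17a1* was 0.149, 0.133 and 2.80 RPKM in LL2 tumors, where tumor 3 also carried the *Krt5* named above. Along the 5 models the epithelial markers (*Epcam*, *Krt8*, *Krt18*, *Krt19*, *Krt5*, *Krt14*, *Cdh1*) summed highest in Pan02, then EO771 and LL2, by the ranges given above, and lowest in MC38 and B16. B16 tumors held 3.81 to 6.38 RPKM, with *Krt5* at 0 in all 3. Their part in the levels of *Itga3*, *Itga6* and *Itgb4* was not tested.

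*Itgb1*, the beta1 chain shared by most matrix receptors, moved little by comparison and was called in no contrast. EO771 tumors were highest at 1131, 1172 and 1244 CPM, above the 658 to 922 CPM of the other 12 (fold change 0.65, SE 0.09, adjusted p = 5.8e-05), a change below the size set for a call. Its mean RPKM was 283 ± 13.6 in EO771 (SD, n = 3) and 173 ± 5.09 in MC38, the lowest mean.

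Among the collagen receptors, *Itga11*, the alpha11 chain known from fibroblasts on fibrillar collagen, differed most. Pan02 tumors had 51.1, 95.0 and 41.7 CPM and no other tumor more than 17.05 CPM (4.49, SE 0.31, adjusted p = 7.3e-08). MC38 tumors read 10.3, 3.67 and 17.05 CPM, a call (1.24) that did not hold without MC38 tumor 3 (0.65, adjusted p = 0.17). The other 9 tumors ran from 0.393 to 3.03 CPM. The 5 fibroblast markers were all higher in Pan02 tumors and all lower in B16 tumors (18.8 and 19.6% of all genes). Their sum was 3886 to 4724 RPKM in Pan02, 286 to 1139 in MC38, 396 to 774 in LL2, 309 to 659.6 in EO771 and 35.97 to 148 in B16. Their part in *Itga11* was not tested. *Itga2*, the alpha2 chain of epithelia and platelets, was higher in LL2 at 12.9, 7.72 and 6.95 CPM (1.54, SE 0.27, adjusted p = 4.0e-04) and lower in MC38 at 1.88, 1.04 and 1.64 CPM (-1.69, SE 0.34, adjusted p = 8.9e-04). *Itga10*, known from cartilage, overlaps another gene over 33.5% of its exon bases and read 3.22, 13.4 and 6.36 CPM in Pan02, where its change of 1.58, SE 0.31 went to 0.91, adjusted p = 0.018 without tumor 2. It was lower in B16 (-1.21, SE 0.38, adjusted p = 0.013) and EO771 (-1.12, SE 0.38, adjusted p = 0.024). *Itga1* was called in no model, at 5.11 to 21.6 CPM over the 15 tumors.

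The RGD receptors had 6 of 8 members higher in Pan02 and 4 lower in B16 (18.8 and 19.6% of all genes). *Itgb5*, the beta5 chain that pairs with alphaV to bind vitronectin, reached 369.8, 483 and 481 CPM in Pan02 (2.34, SE 0.19, adjusted p = 3.2e-07) against 10.6, 28.8 and 23.2 CPM in B16 (-3.16, SE 0.28, adjusted p = 3.5e-07). The remaining 9 tumors lay between, from 103 to 172 CPM. Its partner *Itgav* went the other way in B16 with 381, 321 and 269 CPM, above the other 12 tumors at 112 to 246 CPM, although its fold change of 0.98, SE 0.14 fell short of the size for a call. The *Itgav* to *Itgb5* ratio in RPKM was 5.17 to 16.7 in B16 tumors and 0.120 to 0.223 in Pan02 tumors.

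*Itgb3*, the beta3 chain of the vitronectin and fibrinogen receptors, had 128, 115 and 123 CPM in EO771 (1.44) and 118, 87.3 and 101 in Pan02 (1.12, which became 0.98, adjusted p = 0.0018 without tumor 1 and so lost its size). MC38 tumors were lowest at 28.98, 14.7 and 27.4 CPM (-1.51). *Itgb8*, the beta8 chain that pairs with alphaV and is known for releasing active TGF-β, read 25.5, 7.22 and 3.48 CPM in the Pan02 tumors and did not pass 1.49 CPM elsewhere (5.13, SE 0.48, adjusted p = 9.8e-07), with a wide spread among the 3 Pan02 tumors. *Itga2b*, the alphaIIb chain of platelets and megakaryocytes, was higher in Pan02 at 14.7, 13.4 and 25.9 CPM (2.48) and lower in B16 (-2.66). The platelet markers *Pf4*, *Ppbp*, *Gp9* and *Gp1bb* summed to 44.3 to 241 RPKM in Pan02, 103 to 293 in LL2, 91.4 to 111 in EO771, 20.3 to 115 in MC38 and 19.7 to 27.8 in B16, and their part was not tested. *Itga8* and *Itgb6* were scarce. *Itga8* reached 4.45, 1.89 and 1.20 CPM in Pan02, where its change of 2.15 went to 1.42, adjusted p = 0.011 without tumor 1. *Itgb6*, the epithelial beta6 chain, had 0 counts in all 3 B16 tumors, which allows up to 0.150 to 0.295 CPM at 3 counts a library, and read 0.578, 0.248 and 1.85 CPM in MC38 and 0.586, 1.01 and 1.80 CPM in Pan02. *Itga5*, the alpha5 fibronectin receptor, was called in no model and ran from 129 to 389 CPM, highest on average in EO771 at 359, 361 and 379 CPM.

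Of 14 ligand genes listed for these receptors 13 were tested. In Pan02 9 were higher and 0 lower (18.8 and 7.93% of all genes), and in B16 1 was higher and 9 lower (13.1 and 19.6%). In full, 2 were higher in EO771 and 3 lower (9.71 and 13.7%), 1 and 3 in LL2 (8.51 and 8.29%), and 3 and 3 in MC38 (11.2 and 8.24%). Fibronectin, *Fn1*, was 943, 868 and 1093 RPKM in Pan02 tumors and 16.4, 33.6 and 35.6 in B16. Osteopontin, *Spp1*, was 2233, 1539 and 2073 and 48.7, 63.8 and 71.3 RPKM in these models, both highest in Pan02. Nephronectin, *Npnt*, the ligand of alpha8beta1, was 36.3, 60.1 and 54.7 RPKM in Pan02 and 6.56, 8.02 and 6.49 RPKM in B16, where it was the 1 ligand called higher (1.64), and 0.345 to 1.18 RPKM in the other 9 tumors. Of the 16 adaptors that couple integrins to actin, 3 were higher and 1 lower in Pan02, near the 18.8 and 7.93% of all genes. In B16 5 were lower (19.6% of all genes) and in MC38 4 (8.24%). Kindlin-1, *Fermt1*, the epithelial member of its family, was among the 3 higher in Pan02. It read 1.55, 3.97 and 2.07 RPKM there, with at most 0.108 RPKM elsewhere.

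*Itga4* and *Itga9*, whose chains bind VCAM-1 and matrix ligands and pair with beta1 or, for alpha4, with beta7, were the 2 integrin genes called higher in B16. *Itga4* had 61.8, 60.6 and 73.2 CPM in B16 (2.10, SE 0.33, adjusted p = 9.3e-05) and at most 40.9 CPM in any other tumor. *Itga9* had 90.6, 117 and 87.1 CPM there (1.71, SE 0.18, adjusted p = 2.6e-06) and at most 41.3 CPM elsewhere. Neither range overlapped with that of another model. Of the leukocyte markers, 5 of 8 genes were lower in B16 and none higher (19.6 and 13.1% of all genes). *Itgb7* and *Itgae* in B16 read 8.55, 14.9 and 12.97 and 0.884, 1.68 and 1.15 CPM. The melanocyte markers (*Tyr*, *Tyrp1*, *Dct*, *Pmel*, *Mlana*) summed to between 10352 and 12593 RPKM in B16 tumors and to at most 14.3 in the rest; their part in *Itga4* and *Itga9* was not tested.

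The leukocyte chains other than *Itgb7* spread widely within models. *Itgb2*, the common beta chain of the leukocyte adhesion receptors, was lower in B16 at 49.1, 81.5 and 73.2 CPM (-1.18, SE 0.33, adjusted p = 0.0063), and without B16 tumor 1 that change became -0.99, adjusted p = 0.043. *Itgam*, the CD11b chain of myeloid cells, was lower in B16 at 38.7, 37.2 and 37.2 CPM (-1.81, SE 0.30, adjusted p = 1.4e-04) and higher in LL2 at 161, 150.5 and 264 CPM (1.12, or 0.83, adjusted p = 0.03 without LL2 tumor 3). Since 68.7% of its exon bases lie in an overlapping gene model, its level is uncertain. *Itgal*, the LFA-1 alpha chain of lymphocytes, was called higher in MC38 at 50.3, 37.7 and 60.2 CPM (1.08), a call lost without LL2 tumor 1 or 2 or MC38 tumor 1 or 3, the lowest value being 0.89, adjusted p = 0.13 without MC38 tumor 3. *Itgae*, the alphaE chain of tissue-resident lymphocytes and some dendritic cells that binds E-cadherin, read 5.33, 16.3 and 4.68 CPM in Pan02 against at most 4.13 elsewhere (2.38, SE 0.37, adjusted p = 9.6e-05, or 1.57, adjusted p = 0.0027 without tumor 2). E-cadherin, *Cdh1*, was 18.1, 47.6 and 53.8 RPKM in the same tumors. *Itgax*, the CD11c chain that the naming rule leaves out, was called higher in EO771 and Pan02 (1.33) and lower in B16 and LL2, with 2.45, 2.89 and 8.69 RPKM in the LL2 tumors.

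Laminin alpha chains showed B16 as the exception. *Lama5*, the alpha5 chain of epithelial and vascular basement membranes, was 61.9, 60.2 and 37.2 CPM in B16 (-2.67, SE 0.25, adjusted p = 6.1e-07). LL2 tumors held 567, 372 and 676 CPM (1.51), EO771 tumors 453, 435 and 411 CPM (1.11) and Pan02 tumors 584, 367 and 299.7 CPM (1.05, or 0.70, adjusted p = 0.0050 without Pan02 tumor 1, and 0.99 without B16 tumor 3 or LL2 tumor 2), and the 3 models overlapped. *Lama4*, the alpha4 chain of vessels and mesenchyme, was highest in B16 at 131, 139 and 117 CPM (1.62, SE 0.21, adjusted p = 1.5e-05), with the other 12 tumors at 19.8 to 96.2 CPM. As a share of the summed RPKM of the 5 alpha chains, *Lama4* made up 81.1% ± 2.73 in B16 tumors (SD, n = 3) and between 8.63% ± 2.89 in LL2 and 30.8% ± 8.25 in MC38, while *Lama5* made up 17.5% ± 2.92 in B16 and 90.5% ± 2.91 in LL2. Endothelial markers (*Pecam1*, *Cdh5*, *Kdr*, *Tek*, *Emcn*) summed to 23.8 to 45.1 RPKM in B16, 45.4 to 47.3 in Pan02, 44.2 to 82.3 in MC38, 23.2 to 46.5 in LL2 and 60.4 to 71.6 in EO771 tumors. Their part in the *Lama4* level was not tested.

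The other 3 alpha chains were minor. *Lama2*, the muscle and nerve chain, made up 2.30% ± 1.48 of the class in Pan02 tumors and was called higher there at 3.86, 12.8 and 14.8 CPM (1.69). *Lama3*, the alpha3 chain of the hemidesmosome laminin, was higher in MC38 at 3.32, 2.73 and 3.70 CPM (1.36) and made up 1.69% ± 0.118 of the class. *Lama1*, the embryonic alpha1 chain, was called higher in Pan02 at 1.07, 1.89 and 3.66 CPM (3.68, SE 0.46, adjusted p = 1.5e-05) and in MC38 at 1.01, 0.794 and 1.10 CPM (2.20, SE 0.51, adjusted p = 0.0026), and did not pass 0.530 CPM in the other 9 tumors.

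Of the beta chains, *Lamb1*, the beta1 chain of most embryonic and many adult laminins, was highest in LL2. LL2 tumors held 1069, 519 and 849 CPM (1.78, SE 0.16, adjusted p = 1.5e-06) against 230.0 to 388 CPM in EO771, MC38 and Pan02 and 117, 131 and 98.3 CPM in B16 (-1.74). *Lamb2*, the beta2 chain of mature vessels, muscle and kidney, ranked Pan02 first at 165, 267 and 199 CPM (1.57, SE 0.16, adjusted p = 1.8e-06) and EO771 last at 37.9, 33.8 and 50.3 CPM (-1.40, SE 0.19, adjusted p = 3.9e-05). *Lamb1* made up 91.02% ± 1.53 of the beta class in LL2 tumors and 51.8% ± 2.62 in B16, where *Lamb2* held nearly all the rest at 48.2% ± 2.60. *Lamb3*, of the hemidesmosome laminin, was called higher in EO771 at 2.28, 8.24 and 6.88 CPM (3.01, SE 0.44, adjusted p = 7.4e-05) and made up 1.97% ± 1.11 of the class there.

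*Lamc1*, the gamma1 chain of most laminins, was called higher in EO771 at 628, 696 and 731 CPM (1.16, SE 0.14, adjusted p = 9.9e-06). It was not called in LL2, and the *Lamb1* to *Lamc1* ratio in RPKM was 2.48 to 3.04 there, above the 1.15 to 1.74 of Pan02 and the 0.523 to 0.711 of B16. *Lamb3*, highest in EO771 as given above, did not share its highest model with its partner *Lama3*, which was 1.48, 0.849 and 1.39 CPM in EO771 and highest in MC38. *Lamc3*, the gamma3 chain, had 5.01, 7.77 and 4.69 CPM in B16 (2.89, SE 0.34, adjusted p = 6.0e-06), above the other 12 tumors at 0.0685 to 2.78 CPM.

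**Figure D3:**
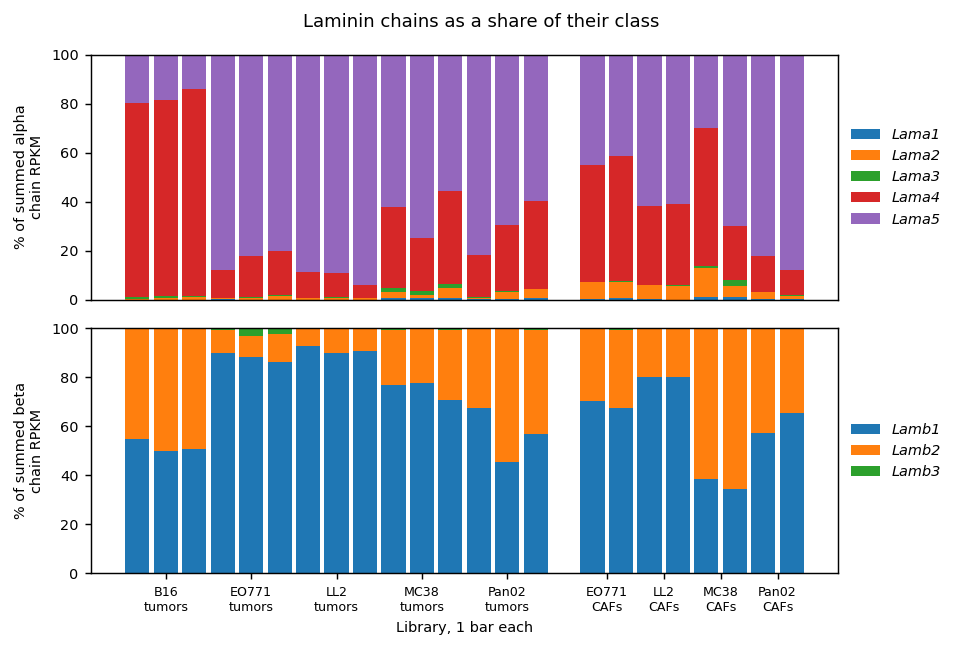
Stacked bars give each laminin chain as a percent of the summed RPKM of the alpha or the beta chains, 1 bar per library. *Lama4* takes most of the alpha class in the 3 B16 tumors and *Lama5* most in the other 12. *Lamb1* takes most of the beta class in all EO771, LL2 and MC38 tumors and in the CAFs of EO771, LL2 and Pan02.

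Of the basement membrane partners, 14 of 15 were tested. B16 tumors had 3 of them higher and 7 lower (13.1 and 19.6% of all genes), and Pan02 tumors 3 and 0 (18.8 and 7.93%). EO771 tumors had 4 and 3 (9.71 and 13.7%), LL2 tumors 3 and 2 (8.51 and 8.29%), and MC38 tumors 2 and 2 (11.2 and 8.24%). The linker nidogen 1, *Nid1*, followed *Lamb1* with 209, 116 and 184 RPKM in LL2 tumors (2.53) and 8.30, 13.2 and 11.3 in B16 (-2.41). Its relative *Nid2* did not, at 7.16, 3.10 and 3.75 RPKM in LL2 (-0.90). Collagen IV chain *Col4a1* was highest in EO771 at 180.3, 202 and 202 RPKM (1.29), the model highest for *Lamc1*.

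In CAFs, 24 of the 34 genes reached 1 RPKM in at least 2 libraries and were tested on log2(RPKM + 1) with limma, and 20 of them differed among the 4 models against 80.4% of the 13598 tested genes. *Itga2*, *Itga4*, *Itga8*, *Itgae*, *Itgal*, *Itgb6*, *Lama1*, *Lama3*, *Lamb3* and *Lamc3* did not reach the filter. EO771 CAFs had 6 genes higher and 4 lower (8.05 and 7.06% of all genes), LL2 CAFs 3 and 1 (3.89 and 5.13%), Pan02 CAFs 6 and 1 (9.73 and 8.41%) and MC38 CAFs 0 and 8 (10.9 and 9.87%). *Itgam* and *Itgb8* passed the filter through the libraries of 1 model alone, EO771 and Pan02, and are among the genes counted as higher there. All libraries of a model lay above all others for 6 members in Pan02, 2 in MC38, 3 in LL2 and 7 in EO771, against 20, 20.3, 9.38 and 17.3% of all genes, and below all others for 1, 7, 0 and 6, against 15.4, 19.8, 7.79 and 17.4%. For MC38, limma put 3 members higher at an unadjusted p under 0.05, and no other tool was run on these RPKM values. Among them, *Itga10* at 2.95 and 3.66 RPKM (0.69, SE 0.13, adjusted p = 0.0032) and *Itga2b* at 4.86 and 5.85 RPKM (0.77, SE 0.13, adjusted p = 0.0020) passed the adjusted p but not the size.

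**Figure D4:**
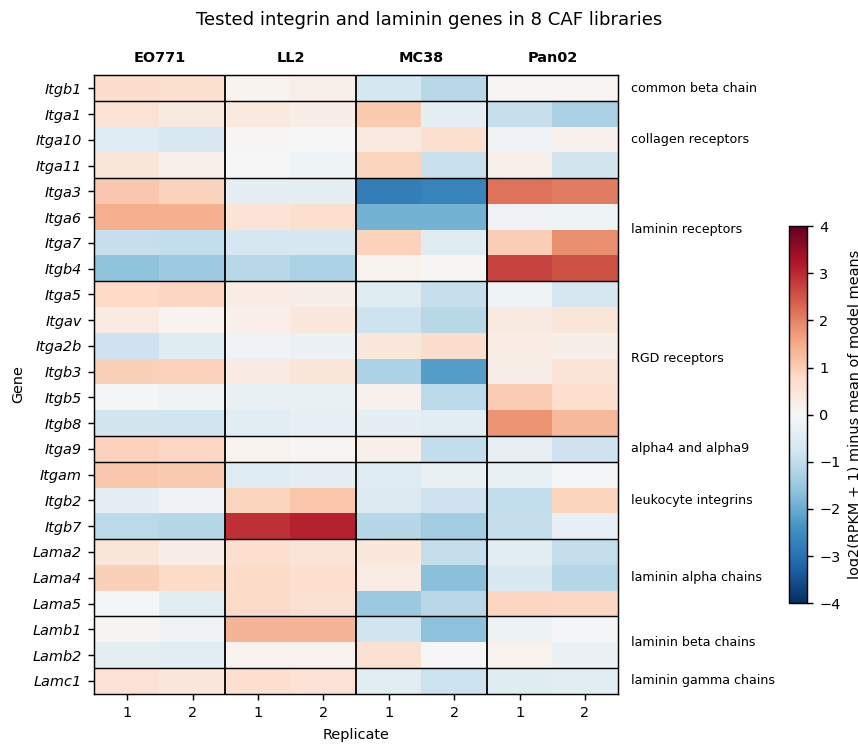
Rows are the 24 tested genes and columns the 8 CAF libraries; color gives log2(RPKM + 1) minus the mean of the 4 model means. *Itgb7* is red in LL2, *Itgb4* and *Itga3* are red in Pan02, *Itga3* and *Itga6* are blue in MC38, and the 2 MC38 libraries differ from each other for *Itga1*, *Itga11*, *Lama4* and *Itgb3*.

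Laminin receptors again set the models apart. *Itgb4* read 54.7 and 49.8 RPKM in Pan02 CAFs and at most 8.49 RPKM in the other 6 libraries (difference on the log2(RPKM + 1) scale 3.50, SE 0.11, adjusted p = 1.4e-06, limma). It was the gene called lower in LL2 CAFs, at 3.04 and 2.58 RPKM (-1.58, SE 0.11, adjusted p = 1.1e-04, limma). *Itga3* read 118 and 110.3 RPKM in Pan02 CAFs (2.82, SE 0.10, adjusted p = 2.2e-06) and 2.87 and 3.18 RPKM in MC38 CAFs (-3.63, SE 0.10, adjusted p = 2.4e-06). It was also called higher in EO771 CAFs, at 54.7 and 48.9 RPKM (1.32, SE 0.10, adjusted p = 8.0e-05, limma). *Itga6* was highest in EO771 CAFs at 36.6 and 35.95 RPKM (1.91, SE 0.09, adjusted p = 1.7e-05) and lowest in MC38 CAFs at 2.73 and 2.71 RPKM (-2.52, SE 0.09, adjusted p = 6.2e-06). *Itgb4* and *Itga6* had the same highest model as in tumors, and *Itga3* was highest in Pan02 CAFs while EO771 and Pan02 tumors overlapped. *Krt8* was 492 and 495 RPKM in EO771 CAFs, 385 and 545 in Pan02 CAFs, 84.2 and 90.5 in LL2 CAFs and 0.274 and 0.241 in MC38 CAFs, and its part in these differences was not tested. MC38 CAFs carried *Itgb4* at 8.49 and 7.85 RPKM, above the 1.85 to 3.04 RPKM of EO771 and LL2 CAFs.

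*Itga7* was higher in Pan02 CAFs at 18.4 and 35.2 RPKM (1.90, SE 0.37, adjusted p = 0.0042), with an MC38 library at 17.8 RPKM close to the lower of them. *Itgb8* read 5.11 and 3.30 RPKM in Pan02 CAFs against at most 0.405 RPKM elsewhere (2.06, SE 0.15, adjusted p = 3.8e-05, limma). *Itgb8* passed the filter through these 2 libraries alone and could not be tested without either, so its call is no separate support. *Itgb5* read 176 and 138 RPKM (1.14, SE 0.29, adjusted p = 0.013), and the difference went to 0.96, adjusted p = 0.10 without Pan02 library 1 and 0.93, adjusted p = 4.1e-04 without MC38 library 2. *Itga1*, the alpha1 collagen receptor of mural and mesenchymal cells, was lower in Pan02 CAFs at 0.742 and 0.333 RPKM (-1.49, SE 0.34, adjusted p = 0.0082, limma). Without Pan02 library 2 its change was -1.29 and the call was lost. The 4 pericyte markers (*Rgs5*, *Cspg4*, *Kcnj8*, *Abcc9*) were all lower in Pan02 CAFs too (8.41% of all genes). Their summed level was 5.61 to 6.70 RPKM against 32.6 to 137 RPKM in the other models, and their part was not tested. *Itga11*, highest in Pan02 among tumors, read 4.91 and 2.07 RPKM in Pan02 CAFs and 1.79 to 8.59 RPKM in the others, and did not pass the test over the models (adjusted p = 0.73).

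EO771 CAFs held as many calls upward as Pan02 CAFs, 6 in each. *Itgb3* read 14.5 and 14.2 RPKM (1.26, SE 0.23, adjusted p = 0.0032) and *Itga5* 107 and 111 RPKM (1.12, SE 0.17, adjusted p = 0.0014). *Itga9* read 3.39 and 3.05 RPKM (1.16, SE 0.29, adjusted p = 0.014), and the call was lost without either EO771 library (adjusted p up to 0.098) or MC38 library 2 (change 0.96, adjusted p = 0.0016). The lower calls were *Itgb4*, *Itgb7*, *Itgb8* (lost without EO771 or LL2 library 2, at -0.98 and -0.99) and *Itga7* (lost without either EO771 or either LL2 library, adjusted p up to 0.12). *Itgam* read 2.16 and 2.08 RPKM and at most 0.409 RPKM elsewhere (1.41, SE 0.12, adjusted p = 1.3e-04), and could not be tested without either EO771 library. *Itgam* passed the filter through the EO771 libraries alone, and *Itgb8* through the Pan02 libraries alone, so neither call is separate support. In EO771 CAFs the macrophage genes *Csf1r* and *Adgre1* read 5.45 and 5.15 RPKM and 2.39 and 2.75 RPKM. Elsewhere they did not pass 1.14 and 0.555 RPKM, and the part of such cells was not tested.

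*Itgb2* was called higher in LL2 CAFs at 7.62 and 8.98 RPKM (1.33, SE 0.42, adjusted p = 0.047), although Pan02 CAFs read 1.35 and 7.67 RPKM and the call was lost without either LL2 or EO771 library or MC38 library 2, with adjusted p-values of 0.051 to 0.24. *Itgb2* did not pass the limma test over the models (adjusted p = 0.073). Its alpha partners in LL2 CAFs were *Itgam* at 0.0480 and 0.137, *Itgal* at 0.0940 and 0.0380 and *Itgax* at 1.35 and 1.42 RPKM. The *Itgam* to *Itgb2* ratio was 0.00630 to 0.0153 in LL2 CAFs, against 0.640 to 0.847 in EO771 CAFs and 0.616 to 0.706 in LL2 tumors. It was low in the remaining CAFs too, at 0.0265 and 0.133 in MC38 and 0.168 and 0.0534 in Pan02. As for *Itgb7*, the beta chain was read at a higher level than its alpha partners in LL2 CAFs, and the cause was not tested. Every other CAF library also read *Itgb2* above *Itgam* and *Itgal*, and *Itgb7* above *Itga4* and *Itgae*. The *Itga4* to *Itgb7* ratio was 0.00277 and 0.00113 in LL2 CAFs and 0.0176 and 0.00934 in Pan02 CAFs. In EO771 CAFs it was 0.110 and 0.106, and in MC38 CAFs 0.148 and 0.0530.

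Among laminins, *Lamb1* read 199 and 199 RPKM in LL2 CAFs and 23.9 to 83.7 RPKM elsewhere (1.82, SE 0.21, adjusted p = 8.1e-04), with *Nid1* at 184 and 178 RPKM. *Lama5* was called higher in Pan02 CAFs at 51.6 and 51.5 RPKM (1.12, SE 0.15, adjusted p = 6.8e-04) and lower in MC38 CAFs at 9.52 and 12.6 RPKM (-1.72, SE 0.15, adjusted p = 9.1e-05). *Lama4* read 29.0 and 25.6 RPKM in EO771 CAFs, 25.5 and 23.9 RPKM in LL2 CAFs, 9.19 and 6.03 RPKM in Pan02 CAFs and 18.03 and 3.93 RPKM in MC38 CAFs, and was called in no model. As a share of the alpha class, *Lama4* was 47.6 and 51.2% in EO771 CAFs, 32.1 and 33.2% in LL2 CAFs and 10.3 and 14.6% in Pan02 CAFs, while the MC38 libraries gave 21.8 and 56.5%. *Lamb2* made up 61.4 and 65.5% of the beta class in MC38 CAFs and 19.8 and 20.02% in LL2 CAFs.

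MC38 CAFs were lower for 8 of the 24 tested genes, and for 7 of these both libraries lay below the other 6, *Itgb7* being the exception. *Itgb1* read 85.4 and 64.8 RPKM against 144 to 230.4 RPKM (-1.21, SE 0.13, adjusted p = 2.5e-04). *Itgav* read 7.16 and 5.68 RPKM against at least 14.7 RPKM (-1.30, SE 0.13, adjusted p = 1.5e-04). *Itgb3* read 2.29 and 0.721 RPKM (-2.33, SE 0.23, adjusted p = 1.5e-04) and *Lamb1* 43.5 and 23.9 RPKM (-1.63, SE 0.21, adjusted p = 4.9e-04). The 8 genes were *Itga3*, *Itga6*, *Itgav*, *Itgb1*, *Itgb3*, *Itgb7*, *Lama5* and *Lamb1*, and leaving out a CAF library put the count between 8 and 14.

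Tumors and CAFs were normalized separately, so their RPKM values are set side by side with no test. Over EO771, LL2, MC38 and Pan02, 17 of the 34 genes had their highest mean in the same model in both tables. The share over all genes was not computed, so this count is not a trait of these families. It includes genes at low levels, as 10 of the 34 did not reach the filter in CAFs. The leukocyte chains *Itgal*, *Itgae*, *Itgam*, *Itgb2* and *Itgb7*, with *Itga4*, were lower in CAFs than in tumors in each of these 4 models. *Itgal*, for one, averaged 9.53 ± 2.17 RPKM in MC38 tumors and 0.695 RPKM in MC38 CAFs. *Lama4* stood higher in CAFs than in tumors in EO771, at 27.3 against 7.08 ± 1.70 RPKM, and in LL2, at 24.7 against 4.36 ± 1.43 RPKM. In Pan02 it was 7.61 against 13.3 ± 2.504 RPKM. *Itga11* likewise stood higher in EO771 CAFs (5.53 RPKM) than in EO771 tumors (0.440 ± 0.0816 RPKM), whereas in Pan02 it was 3.49 RPKM in CAFs and 12.8 ± 5.798 RPKM in tumors. *Itgb4* was 52.3 RPKM in Pan02 CAFs and 52.9 ± 12.6 RPKM in Pan02 tumors, *Itga3* 114 and 94.1 ± 35.03 RPKM, and *Itgb7* 59.3 RPKM in LL2 CAFs and 175 ± 11.5 RPKM in LL2 tumors.

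**Figure D5:**
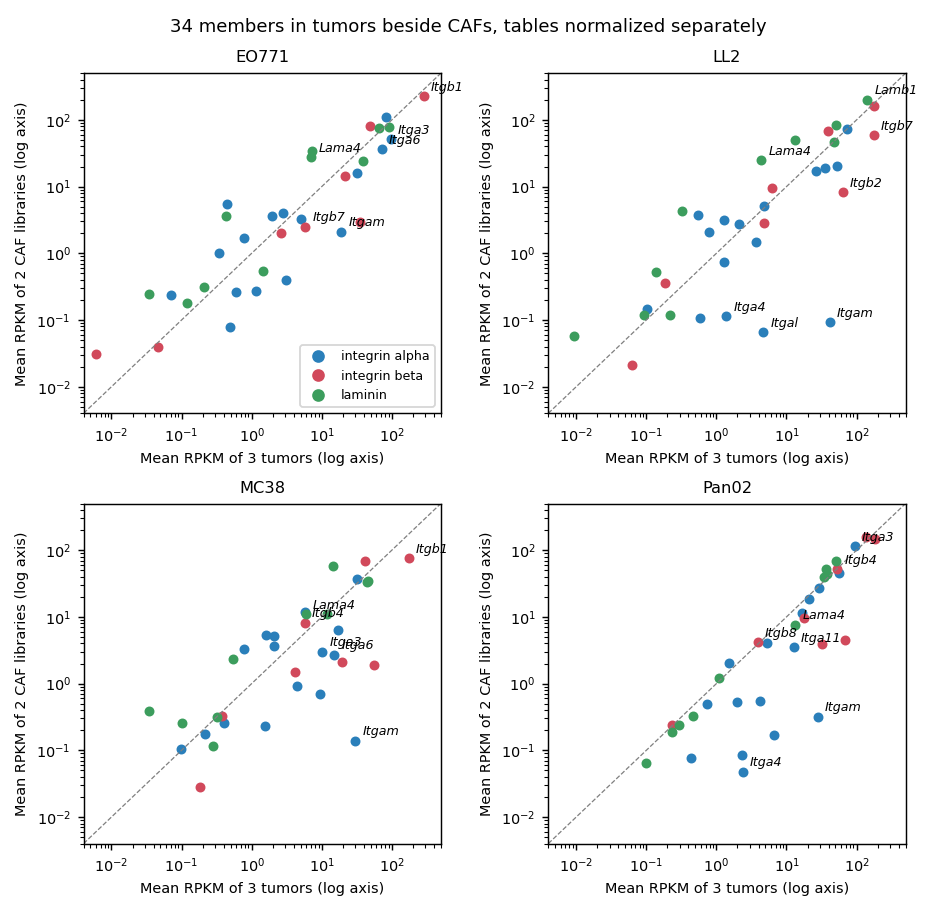
Points are the 34 genes in each of 4 models, with the mean RPKM of 3 tumors on the x axis and of 2 CAF libraries on the y axis, both on log axes, and a dashed line of equal values. *Itgam*, *Itgal* and *Itga4* lie far below the line in LL2, *Itgb7* in LL2 lies below it at 59.3 against 175 RPKM, *Itgb4* in Pan02 lies on it, and *Itga11* lies below it in Pan02.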

How the data were processed

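The members and the gene lists were chosen with earlier results of these data known. The authors deposited 1 file of expected counts for the tumors, by RefSeq transcript and not all whole numbers, and 1 of RPKM (reads scaled to transcript length and library size) for the CAFs, normalized apart from the tumors. The submitters' processing notes name STAR 2.5.0c, HOMER, DESeq2 and the mm10 build, and per the labels the libraries were poly(A)-enriched and unstranded. A single transcript per symbol was kept in either file by the largest mean, among 40458 transcripts of which 2 name no gene, and 5 columns of other samples were not used. Expected counts were rounded, values of 0.5 upward, and 15722 genes were tested in 15 tumors with edgeR 4.0.16 (TMM, quasi-likelihood, common dispersion 0.0559, R 4.3.3). For CAFs, 13598 genes with at least 1 RPKM in 2 libraries were tested on log2(RPKM + 1) with limma 3.58.1, which compresses the change of low genes. Benjamini-Hochberg adjustment was over all genes tested, and DESeq2 1.42.0 was an alternative. CPM uses TMM library sizes, and RPKM of tumors were computed from those counts and transcript lengths.

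The genes named are all 34 members described, with standard errors and adjusted p-values for the calls described most fully and the change or the direction alone for the others, and the pathway and marker lists by counts and examples. A single gene that meets the naming rule and a single marker gene are not reported here, and entered no count of members, summed marker level or figure. The steps were tested on simulated data. For simulated Pan02 tumors against the other 4 (15387 genes), edgeR recovered 83 of 100 genes changed 2-fold and 100 of 100 changed 4-fold with 9 false calls, and DESeq2 83 and 99 with 22. For simulated Pan02 CAFs against the other 3 (12822 genes), limma recovered 97 and 96 of 100 with 7 false calls. Recovery and false calls were counted at an adjusted p under 0.05 alone, without the size that a call here also needs. Every simulated gene in a table had the same noise setting, so these rates do not carry over to the calls above. Exon overlaps come from GENCODE M21 and start-site sequences from RefSeq on GRCm38.p6. Tables and figures were made with Python 3.11.15, numpy 2.4.6, pandas 2.3.3 and matplotlib 3.10.9.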

Additional observations from a re-analysis of the deposited data

How the results depend on the processing

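No call of a single member turned its direction under any alternative run. With an adjusted p alone in place of p and size together, the count of members lower went from 2 to 6 in LL2 tumors, 4 to 9 in MC38 tumors, 0 to 4 in Pan02 tumors, 4 to 7 in EO771 CAFs, 1 to 4 in LL2 CAFs and 1 to 5 in Pan02 CAFs, and the count higher went from 3 to 7 in LL2 CAFs and 0 to 2 in MC38 CAFs, by construction. A pseudocount of 0.1 RPKM gave 2 lower in LL2 CAFs, and the cause was not tested. DESeq2, total-count scaling, the longest transcript, values of 0.5 rounded down and the filters kept all counts within 1.5 times.

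Leaving out 1 library gave between 4 and 9 lower in EO771 tumors, 1 and 4 lower in LL2 tumors, 2 and 6 higher in MC38 tumors, 0 and 1 lower in Pan02 tumors, 2 and 4 lower in EO771 CAFs, 2 and 5 higher and 1 and 2 lower in LL2 CAFs, 0 and 2 higher and 8 and 14 lower in MC38 CAFs, and 1 and 3 lower in Pan02 CAFs. A CAF model left with 1 library was assumed to vary like the others. Same-numbered tumors deviated with correlations of -0.165 to 0.263 (median 0.029, against 0.0115 for different numbers) and same-numbered CAFs with -0.143 to 0.277 (median 0.108). With 2 libraries a CAF model, the values for different numbers are these with the sign turned, so they give no separate comparison. Not every pair was over 0.1, so the samples were not treated as paired, and whether the sorting rounds were shared between CAF models is not given in the labels. With the replicate number as a block, lower members in Pan02 CAFs were 2 and no other count moved by over 1.5 times. Depth limits *Itgb6*, *Itga8* and *Lama1*, at a few counts a tumor, and CAF depths are estimates. It also limits some downward calls of other members. *Itgb8* had 2, 3 and 2 counts in B16 tumors and 0, 3 and 2 in EO771 tumors. *Lamb3* had 1, 3 and 2 counts in B16 tumors and *Lamc3* 7.5, 3 and 1 in MC38 tumors.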

Other observations

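Among CAFs the integrin ligands and adaptors also differed by model. Of 13 tested ligands, 6 were higher and 2 lower in Pan02 CAFs (9.73 and 8.41% of all genes) and 4 and 5 in EO771 (8.05 and 7.06%). In LL2 0 and 2 were called (3.89 and 5.13%) and in MC38 1 and 4 (10.9 and 9.87%). *Npnt* read 27.3 and 42.6 RPKM in Pan02 CAFs and 0.262 to 0.480 RPKM in the other 6 libraries (difference 4.68 on the log2(RPKM + 1) scale). *Npnt* and *Fermt1* passed the filter through the Pan02 libraries alone, and both are among the genes counted as higher there. *Fn1* read 1991 and 1321 RPKM in Pan02 CAFs (1.63) and 514 and 259 RPKM in MC38 CAFs (-1.23). Of 15 tested adaptors, 4 were higher in Pan02 CAFs, 3 in EO771 and none in LL2 or MC38, and 6 were lower in MC38, beside those same shares. *Fermt1* read 9.07 and 4.84 RPKM in Pan02 CAFs and 0 to 0.0720 RPKM elsewhere. Epithelial marker sums were highest in Pan02 CAFs and lowest in MC38 CAFs, and the part of epithelial cells in the ligand and adaptor levels was not tested.

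The nidogens, which link laminin to collagen IV, had different calls in CAFs, and their difference was not tested. *Nid1* read 184 and 178 RPKM in LL2 CAFs (2.40) and 21.3 and 9.74 RPKM in Pan02 CAFs (-2.33). *Nid2* read 11.3 and 9.70 RPKM in LL2 and 3.43 and 2.90 RPKM in Pan02 CAFs (0.61 and -1.34). *Bcam* read 21.99 and 19.8 RPKM and *Cd151* 158 and 173 RPKM in Pan02 CAFs, both higher than in the other CAFs by the same test (1.91 and 1.77). In EO771 CAFs *Bcam* read 2.45 and 3.54 RPKM and *Cd151* 48.3 and 54.04 RPKM.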
